A study of Mus musculus with 19 samples.

Results

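The basal and suprabasal keratins of the epidermis were followed as a set of 8 genes, 8 of the 34807 genes in the count table. They were chosen by symbol for the layer in which each keratin is best known, and not by any value measured here. Krt5, Krt14 and Krt15 stood for the basal layer. Krt1, Krt10, Krt2 and Krt77 stood for the layers above it, and Krt80, a keratin of late differentiation, was kept apart from both. All 8 passed the filter on low counts.

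Bulk RNA was sequenced from 6 Ivl:BRAFV600E tumours, 5 K5:BRAFV600E tumours, 4 K14:BRAFV600E tumours and 4 samples of WT normal skin, 19 libraries from female mice. The V600E form of BRAF, a kinase that keeps MAPK signalling on, was switched on by an inducible Cre in mice aged 7 to 20 weeks. The study's methods give tamoxifen as the inducing drug of Ivl models and 4-hydroxytamoxifen as that of K5 and K14 models. The labels call the tumours squamous cell carcinomas. Per the methods, all mice were on a C57BL/6J background. Cre was driven by the Ivl promoter, best known from committed and suprabasal keratinocytes, or by the Krt5 or Krt14 promoter of basal cells. The normal skin came from control littermates. A tumour and a piece of whole skin differ in their share of epithelium, and in bulk RNA fewer cells of a type and less RNA per cell cannot be told apart.

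Keratins build the intermediate filaments of epithelial cells. A filament needs a type I keratin and a type II keratin as partners, so the genes are used in pairs. Basal keratinocytes, which hold the stem cells, use the pair Krt5 (type II) and Krt14 (type I). Cells that leave the basement membrane turn this pair down and start Krt1 (type II) and Krt10 (type I), the classic first step of epidermal differentiation. Krt15 is a second basal type I keratin that is also strong in the hair follicle bulge. Krt2 and Krt77 are type II keratins of upper or restricted suprabasal layers, and Krt80 is a type II keratin of late differentiating cells of many epithelia.

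All 8 genes lie on the minus strand in 2 clusters (GRCm38, GENCODE M21). Krt10 (chr11:99385254-99389364), Krt15 (chr11:100131758-100135928) and Krt14 (chr11:100203162-100207548) lie in the type I cluster. Krt80 (chr15:101347444-101370162), Krt5 (chr15:101707070-101712898), Krt2 (chr15:101810689-101818169), Krt1 (chr15:101845426-101850794) and Krt77 (chr15:101858731-101869705) lie in the type II cluster. Krt2, Krt1 and Krt77 are direct neighbours there, with 27.3 kb between Krt2 and Krt1, 7.94 kb between Krt1 and Krt77 and no gene in either gap. In K5/K14 tumours Krt1 was higher than in skin and both of its neighbours were lower, as the values further on show.

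Promoter windows from RefSeq (GRCm38.p6) matched 5 of the 8 genes. The 250 bases before the start are shown for 4 of them, since Krt5 and Krt10 were higher in tumours than in skin while Krt2 and Krt77 fell in K5/K14 tumours. The window for Krt14 begins 1518 bases inside the gene model and is not shown. Capitals mark TATAAA and TATATA (the latter added after the windows had been read), which can overlap, and each sequence runs 5′ to 3′ along the gene's strand.
Krt5 (chr15:101712906-101713155): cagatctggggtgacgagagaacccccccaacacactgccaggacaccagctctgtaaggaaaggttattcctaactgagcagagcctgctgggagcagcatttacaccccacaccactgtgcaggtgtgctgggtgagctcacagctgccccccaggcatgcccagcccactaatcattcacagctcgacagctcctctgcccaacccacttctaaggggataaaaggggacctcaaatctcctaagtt
Krt10 (chr11:99389365-99389614): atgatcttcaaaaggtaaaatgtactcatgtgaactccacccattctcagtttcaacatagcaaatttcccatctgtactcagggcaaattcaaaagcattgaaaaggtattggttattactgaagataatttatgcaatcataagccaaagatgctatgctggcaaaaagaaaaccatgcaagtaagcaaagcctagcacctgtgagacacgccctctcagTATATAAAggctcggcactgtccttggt
Krt2 (chr15:101818170-101818419): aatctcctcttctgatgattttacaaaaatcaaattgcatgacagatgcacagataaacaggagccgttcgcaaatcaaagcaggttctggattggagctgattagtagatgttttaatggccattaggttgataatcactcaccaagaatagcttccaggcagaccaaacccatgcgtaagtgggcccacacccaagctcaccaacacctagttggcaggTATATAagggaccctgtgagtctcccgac
Krt77 (chr15:101869706-101869955): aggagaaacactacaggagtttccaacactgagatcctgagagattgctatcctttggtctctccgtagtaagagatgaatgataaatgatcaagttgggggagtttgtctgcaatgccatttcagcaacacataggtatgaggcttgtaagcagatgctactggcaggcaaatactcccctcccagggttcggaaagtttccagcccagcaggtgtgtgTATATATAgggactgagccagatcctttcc

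On both strands, TATAAA was found in 12.4% and TATATA in 5.25% of 32851 windows of this length. Krt10 held both in an overlap from 28 to 21 bases before the start, Krt2 held TATATA from 29 to 24 bases before it, and Krt77 held TATATA 2 times from 30 to 23 bases before it. Krt5 held neither. TGANTCA (in 6.75% of windows), GCCNNNGGC (13.7%) and GGGCGG (32.7%), core letters of the AP-1, AP-2 and Sp1 motifs, were in none of these 4 windows. The Krt10 window was the poorest in G and C (39.6%) and that of Krt5 the richest (56%), against a median of 52.4% over all windows.

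Library totals ran from 45715309 to 72609771 counts. The 8 keratins together took 0.879% to 1.85% of all counts in normal skin and 2.96% to 7.89% in tumours, so the lowest tumour lay above the highest skin sample. Levels are given as CPM (the share of a library's counts, scaled up to a common total) with TMM factors, which line up the bulk of genes between libraries, and per kb of the longest coding transcript where genes are compared with each other. Reads could be shared with a near copy, which leaves Krt5 and Krt14 less certain than the rest. Of the 101-base windows of the transcripts, 3.67% of those of Krt5 also occur in Krt6a, Gm5478 or Gm44323, 2.75% of those of Krt14 in Krt16 and 1.83% of those of Krt80 in Gm35853. None of the windows of Krt15, Krt1, Krt10, Krt2 or Krt77 occur in another gene. Whether strand was used in counting is not stated, and the genes that overlap Krt10 and Krt80 reached at most 838 counts, against at least 7212 for the keratin.

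Ivl tumours 1, 2 and 3 and K5 tumour 1 need a word before the results. An earlier analysis of these data found that these 4 libraries have nearly the same mean as the other 15, gene by gene. Here the difference was at most 0.1 log2 for 96.6% of 13954 genes with a mean over 2 CPM. The other 15 include all of the normal skin. The deposited counts had been adjusted for batch. The study describes a small and a large batch, sequenced at different times, equal in size to this set and to the rest. Which library was in which batch is not given in the sources used here. For Krt77 the set averaged 182 CPM, close to the 186 CPM of the other 15, although tumours outside the set averaged 16.8 CPM. For Krt15 the values were 358, 368 and 111 CPM. These 3 means per gene use library totals without TMM scaling. Results are shown for all 19 libraries, and for the 15 alone chiefly where these differ in a call.

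In Ivl tumours and in the merged K5/K14 tumours the classic pairs of both layers were higher than in normal skin. Among them, Krt14 and Krt1 had the largest fold changes. Krt15, Krt2 and Krt77 did not rise with them, and in K5/K14 tumours all 3 fell.

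**Figure D1:**
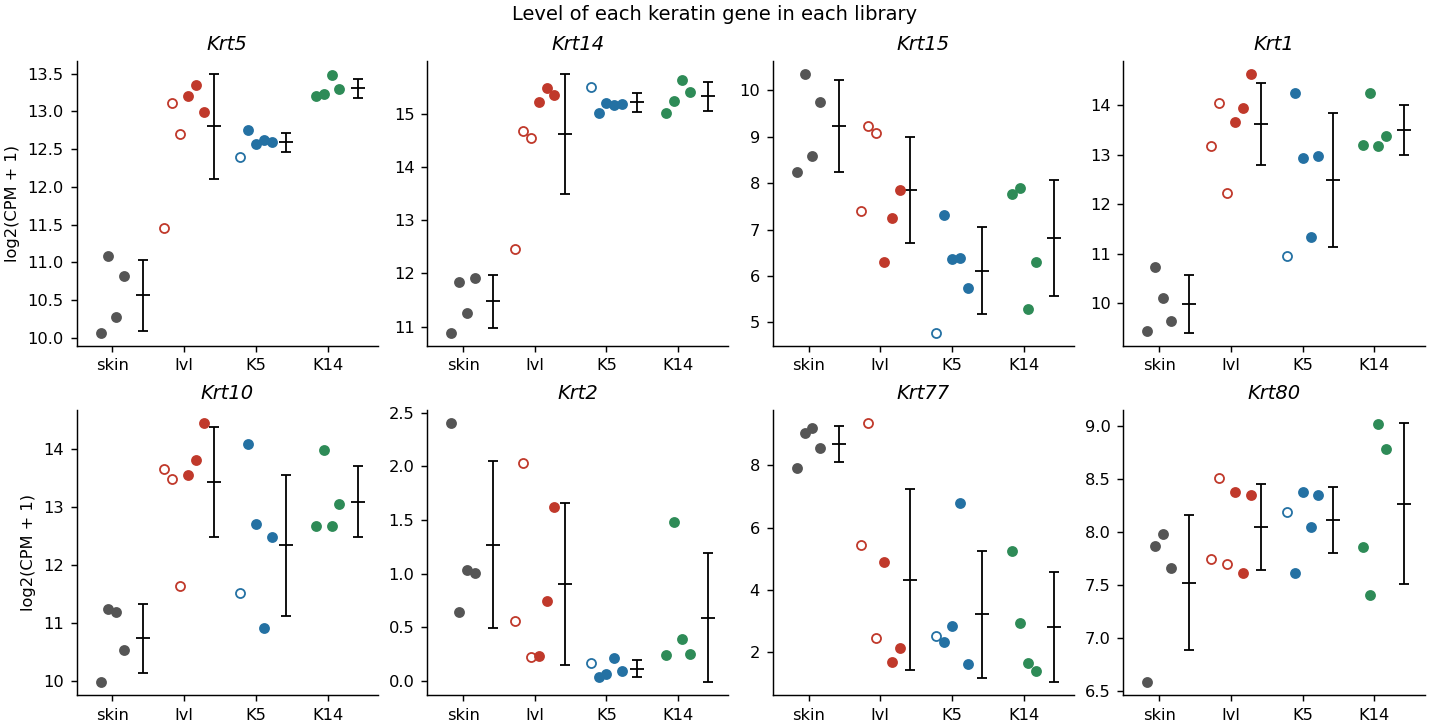
Levels of the 8 keratin genes, as log2(CPM + 1), in each library of normal skin (n = 4) and of Ivl (n = 6), K5 (n = 5) and K14 (n = 4) tumours. Points are libraries, open points are Ivl tumours 1 to 3 and K5 tumour 1, and bars give mean ± SD. Krt5, Krt14 and Krt1 show no overlap between skin and tumours, and most tumours lie below skin for Krt77.

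Among the basal keratins, Krt14 was at 1888, 3681, 2453 and 3881 CPM in the 4 skin samples. In Ivl tumours it ranged from 5639 to 45642 CPM with a median of 32265. The 5 K5 tumours were at 46567, 33080, 37900, 36883 and 37126 CPM, and the 4 K14 tumours at 32943, 38878, 51085 and 43715 CPM. Every tumour lay above every skin sample, and Ivl tumour 1 was by far the lowest tumour. Krt14 was 10.2-fold higher in Ivl tumours than in skin (log2 fold change 3.34 ± 0.43 SE, edgeR adjusted p = 2.02e-05) and 13.4-fold higher in K5/K14 tumours (3.74 ± 0.43, adjusted p = 2.13e-06).

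Krt5, the type II partner of Krt14, was at 1072, 2181, 1238 and 1805 CPM in skin. Ivl tumours ranged from 2805 to 10407 CPM (median 8482), K5 tumours were at 5394, 6923, 6072, 6318 and 6176 CPM, and K14 tumours at 9454, 9574, 11405 and 10066 CPM. Skin and tumours did not overlap, and the spread within each of the K5 and K14 groups was small, with an SD of 548 and 894 CPM around means of 6177 and 10125. Krt5 was 4.89-fold higher in Ivl tumours than in skin (log2 2.29 ± 0.34, edgeR adjusted p = 3.61e-05) and 5.04-fold higher in K5/K14 tumours (2.33 ± 0.33, adjusted p = 1.11e-05).

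Krt15 went the other way. It was at 302, 1309, 383 and 857 CPM in skin, a wide spread, and Ivl tumours ranged from 77.8 to 600.3 CPM (median 199). K5 tumours held 26.3, 157, 81.5, 82.0 and 52.6 CPM and K14 tumours 216, 239, 38.0 and 77.9 CPM. All 9 K5/K14 tumours lay below all skin samples, while Ivl tumours 2 and 3 reached into the range of skin. Krt15 was 6.61-fold lower in K5/K14 tumours (log2 -2.73 ± 0.57, edgeR adjusted p = 0.000686). In Ivl tumours the fitted difference was -1.27 ± 0.64 (adjusted p = 0.119) over all libraries and -2.22 ± 0.71 (adjusted p = 0.0182) within the 15, so the call was made only there.

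Of the suprabasal keratins, Krt1 was at 691, 1712, 1105 and 797 CPM in skin and ranged from 4783 to 25328 CPM in Ivl tumours (median 14342). K5 tumours were at 1985, 19528, 7867, 2578 and 7988 CPM, and K14 tumours at 9431, 19319, 9224 and 10581 CPM. No tumour fell into the range of skin, but K5 tumours 1 and 4 came close to it. Krt1 was 13.1-fold higher in Ivl tumours (log2 3.72 ± 0.63, edgeR adjusted p = 0.000131) and 9.14-fold higher in K5/K14 tumours (3.19 ± 0.59, adjusted p = 0.0002).

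Krt10, the type I partner of Krt1, was at 1006, 2406, 2324 and 1474 CPM in skin. Ivl tumours ranged from 3163 to 22188 CPM (median 12369), K5 tumours were at 2919, 17240, 6668, 1921 and 5658 CPM, and K14 tumours at 6508, 16080, 6455 and 8449 CPM. K5 tumour 4 lay within the range of skin, and the other tumours lay above it. Krt10 was 7.01-fold higher in Ivl tumours (log2 2.81 ± 0.59, edgeR adjusted p = 0.000993) and 4.43-fold higher in K5/K14 tumours (2.15 ± 0.55, adjusted p = 0.00269).

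Krt77, the neighbour of Krt1, had 241, 524, 584 and 378 CPM in skin. In Ivl tumours it ranged from 2.18 to 654 CPM (median 16.6), K5 tumours had 4.73, 3.97, 6.07, 109 and 2.1 CPM, and K14 tumours 37.2, 6.57, 2.13 and 1.63 CPM. Ivl tumour 2 was alone in reaching skin levels, and it held the most of all 19 libraries. Krt77 was 22.5-fold lower in K5/K14 tumours (log2 -4.49 ± 1.34, edgeR adjusted p = 0.00832), and the difference was -5.74 (adjusted p = 0.00173) without K5 tumour 4. In Ivl tumours the difference was -1.82 ± 1.45 (adjusted p = 0.305), but -4.73 (adjusted p = 0.0108) without Ivl tumour 2 and -5.24 ± 1.80 (adjusted p = 0.0255) within the 15 libraries.

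Krt2 was scarce everywhere. Skin held 325, 50, 112 and 103 counts (4.29, 0.562, 1.05 and 1.0 CPM), Ivl tumours 9 to 188 counts, K5 tumours 8, 1, 2, 7 and 3 counts and K14 tumours 9, 78, 13 and 9 counts. The highest library was skin sample 1, and K14 tumour 2 and Ivl tumours 2, 5 and 6 lay within the range of skin. Krt2 was lower in K5/K14 tumours (log2 -2.42 ± 0.89, edgeR adjusted p = 0.0244), but not past the threshold without skin sample 1 (-1.42, adjusted p = 0.206), and the difference was -3.62 (adjusted p = 0.000578) without K14 tumour 2. In Ivl tumours it was -0.63 ± 0.98 (adjusted p = 0.601), and 0.35 (adjusted p = 0.806) without skin sample 1.

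Krt80 had 95.1, 232, 252 and 201 CPM in skin, 195 to 363 CPM in Ivl tumours (median 269), 291, 195, 332, 264 and 324 CPM in K5 tumours and 231, 169, 517 and 439 CPM in K14 tumours. The groups overlapped. The log2 differences from skin, 0.48 ± 0.31 in Ivl tumours (edgeR adjusted p = 0.204) and 0.65 ± 0.29 in K5/K14 tumours (adjusted p = 0.0573) did not pass the test, and their sign turned when libraries were scaled by their totals alone (-0.21 and -0.16). In K5/K14 tumours Krt80 passed the test without K5 tumour 2 (0.72, adjusted p = 0.041), K14 tumour 2 (0.73, adjusted p = 0.0313) or skin sample 3 (0.79, adjusted p = 0.0442).

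**Figure D2:**
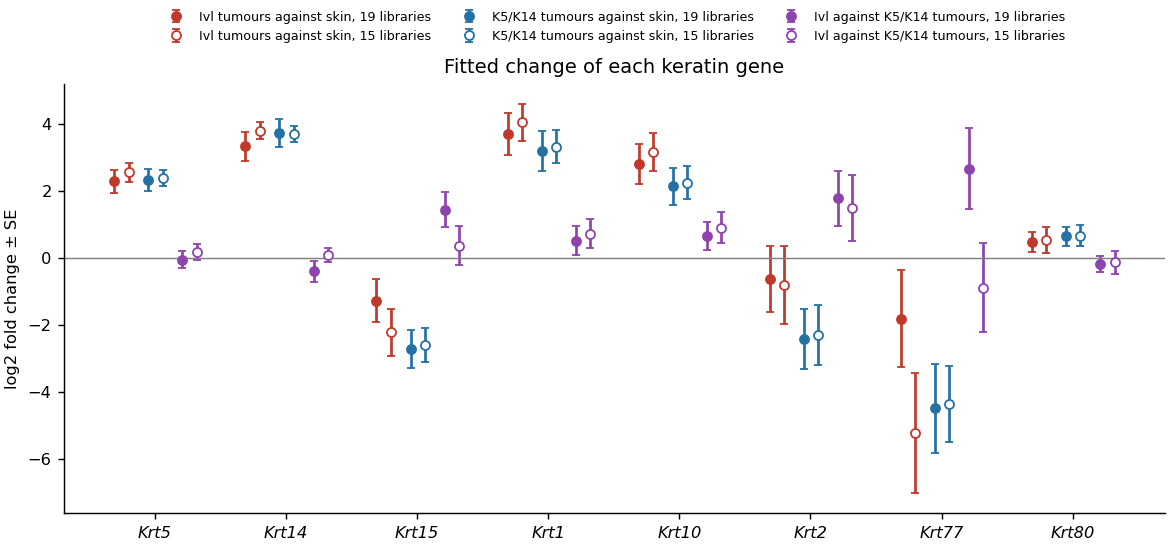
Fitted log2 fold change ± SE of each keratin gene (edgeR) for Ivl tumours against skin, K5/K14 tumours against skin and Ivl against K5/K14 tumours. Filled points use all 19 libraries and open points the 15 outside the set of 4. Krt5, Krt14, Krt1 and Krt10 lie above 0 in both comparisons with skin, and Krt77 in Ivl tumours moves from -1.82 to -5.24 between the filled and the open point.

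In Ivl tumours 4 of the 8 genes were called higher than in skin and 0 lower, where 35.9% of 32031 genes were called, 20.4% higher and 15.5% lower. Within the 15 libraries 4 were higher and 2 lower, against 54.9% of all genes called, 22.2% higher and 32.7% lower. In K5/K14 tumours 4 were higher and 3 lower, against 62.2% called, 23.2% higher and 38.9% lower, and the same counts held within the 15, against 66.2%. Ivl tumours did not overlap with skin for 4 keratins, all higher, as for 13.2% of all genes higher and 9.01% lower. K5/K14 tumours did not overlap with skin for 3 higher and 2 lower keratins, against 16.7% and 24.6% of all genes. The median log2 difference from skin was 1.39 over the 8 genes and -0.46 over all genes tested in Ivl tumours, and 1.4 against -0.60 in K5/K14 tumours. Both comparisons share the 4 skin samples. With so many genes called, the count of calls alone does not set the keratins apart.

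Skin and tumours also differed in the tissue they held. The markers of skeletal muscle, 6 genes, summed to 2218 to 6798 CPM in skin, 4.72 to 4044 CPM in Ivl tumours and 5.76 to 462 CPM in K5/K14 tumours. Those of adipocytes, 5 genes, summed to 167 to 430 CPM, 2.69 to 205 CPM and 1.24 to 65.3 CPM. The 9 epithelial genes that are no keratins (such as Cdh1, Perp and Esrp1) summed to 2534 to 2805 CPM in skin, 4967 to 13397 CPM in Ivl tumours and 9333 to 15326 CPM in K5/K14 tumours, without overlap. Perp and Sfn held most of this sum in tumours (on average 6527 and 4267 CPM in K5/K14 tumours). Of the 9 genes, edgeR called 7 higher in Ivl and 8 in K5/K14 tumours, against 20.4% and 23.2% of all genes, and 0 lower. Cldn1 stayed level (log2 -0.05 and -0.04), and Grhl2 was not called in Ivl tumours. The mean log2 CPM of this epithelial list, which weighs its genes alike, was 1.2 higher in Ivl and 1.35 higher in K5/K14 tumours than in skin.

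Relative to the epithelial list, Krt14 was still higher than in skin by 1.95 log2 on average in Ivl tumours and 2.43 in K5/K14 tumours, and Krt1 by 2.43 and 1.6. Krt5 was higher by 1.04 and 0.99, Krt10 by 1.5 and 0.58. Krt80 turned to -0.67 and -0.69, Krt15 was at -2.58 and -4.18, Krt2 at -2.13 and -4.09, and Krt77 at -5.75 and -7.31. Skin and tumours did not overlap on this scale for Krt1 in Ivl tumours, or for Krt14, Krt15 and Krt77 in K5/K14 tumours, and overlapped in the other cases over all libraries. Of the markers of other cells, edgeR called all 6 muscle genes and 3 of 5 adipocyte genes lower in K5/K14 tumours, where 38.9% of all genes were called lower, and 0 of either list in Ivl tumours, where 15.5% were. In Ivl tumours 0 of these 11 genes had an unadjusted p under 0.05, against 15603 of all 32031 genes. DESeq2 called 0 of the 11 there, and 11701 of all genes. By edgeR 1 of 6 muscle and 2 of 5 adipocyte genes were called lower in Ivl tumours within the 15 libraries, where 32.7% of all genes were. Of the rest, edgeR called 1 of 4 endothelial genes higher in both comparisons (Emcn), 1 of 6 fibroblast genes (Dcn) and 2 of 5 immune genes (Cd3e and Ptprc) lower in K5/K14 tumours, and 1 of 4 melanocyte genes (Pmel) lower in Ivl tumours, all named after their values were seen. How far the epithelial share accounts for the differences from skin was not tested.

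Markers of the hair follicle bulge, a known home of Krt15, were lower in K5/K14 tumours. All 8 bulge genes passed the test there, against 38.9% of all genes called lower, with Sox9 at 20.3 ± 4.68 CPM against 81.8 ± 18.6 (SD, log2 -2.01 ± 0.41, edgeR adjusted p = 0.000477). By protein staining, the study saw SOX9 mainly in the follicles of normal skin, but also in the basal layer of tumours from every model. Sox9 is thus not a marker of the bulge alone in these tumours, and its bulk RNA was lower all the same. In Ivl tumours 2 of the 8 passed the test over all libraries, against 15.5% of all genes (Nfatc1, -0.96 ± 0.33, adjusted p = 0.0284, and Sox9, -1.31 ± 0.45, adjusted p = 0.0325), and 6 within the 15, against 32.7%. The bulge list summed to 411 to 526 CPM in skin, 118 to 393 CPM in Ivl tumours and 99.3 to 224 CPM in K5/K14 tumours. Its part in the level of Krt15 was not tested. Of the 8 genes of the hair shaft and inner sheath 0 were called by edgeR in either comparison, where 35.9% and 62.2% of all genes were. In Ivl tumours 0 had an unadjusted p under 0.05 and DESeq2 called 0, and in K5/K14 tumours 2 did (Krt28 and Krt35) and DESeq2 called 1 (Krt28). Over all 32031 genes, 15603 and 21386 had an unadjusted p under 0.05, and DESeq2 called 11701 and 18698. The sum of the hair shaft and sheath genes ran from 5.90 to 3038 CPM within normal skin alone.

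Ivl and K5/K14 tumours were compared to ask whether the cell in which BRAF was switched on left a trace in the keratins. Per the study, Ivl tumours also arose much later, grew more slowly and came up at more body sites, and the inducing drug differed. In this comparison these cannot be told apart from the cell of origin. With edgeR 0 of the 8 genes passed the test, where 2.36% of all genes did, and 0 within the 15 libraries, where 0.41% did. Of the 8, 3 had an unadjusted p under 0.05 (Krt15, Krt2 and Krt77), as had 6754 of all 32031 genes. DESeq2 called 0 of the 8, and 2161 of all genes. Krt5 (log2 -0.04 ± 0.25, adjusted p = 0.972) and Krt14 (-0.40 ± 0.31, adjusted p = 0.482) had slightly lower fitted levels in Ivl tumours. Within the 15 libraries the sign of both turned (0.17 ± 0.24 and 0.10 ± 0.21). Krt1 (0.52 ± 0.43, adjusted p = 0.51) and Krt10 (0.66 ± 0.42, adjusted p = 0.387) had higher means in Ivl tumours, but the groups overlapped. Krt15 (1.45 ± 0.52, adjusted p = 0.125) and Krt77 (2.67 ± 1.2, adjusted p = 0.212) had higher fitted levels in Ivl tumours, but within the 15 libraries their differences were 0.37 ± 0.58 and -0.88 ± 1.34. For Krt2 (1.78 ± 0.82, adjusted p = 0.217) the difference passed the test only without K14 tumour 2 (2.99, adjusted p = 0.0403).

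The study merged K5 with K14 tumours, so the 2 were also set against each other. With edgeR 0 of all 32031 genes were called between them, 1945 had an unadjusted p under 0.05 (Krt5 and Krt2 among them), and DESeq2 called 201, while edgeR called 0.0532% of genes and none of the 8 within the 15 libraries. Krt5 was lower in all 5 K5 tumours than in any of the 4 K14 tumours, 1.64-fold by the fit (log2 -0.71 ± 0.28), but this did not pass the test (adjusted p = 0.749, and 0.286 within the 15 libraries). Krt2 also had groups that did not overlap, with 8 counts at most in any K5 tumour. Across all genes 4.44% had K5 and K14 values that did not overlap. Krt14 was at 38311 ± 4978 and 41655 ± 7676 CPM (SD), with overlap.

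The order of the genes by level per kb shows how the tumours differ from skin. In skin it ran from Krt14 (1753 ± 566 CPM per kb, SD, n = 4) over Krt10 (861 ± 324), Krt5 (716 ± 233), Krt1 (438 ± 187), Krt15 (419 ± 275), Krt77 (147 ± 52.4) and Krt80 (49.8 ± 17.8) to Krt2 (0.660 ± 0.659). The ranges of neighbours in this order overlapped down to Krt77, and Krt77, Krt80 and Krt2 were apart from each other. Within single skin libraries, Krt14 exceeded Krt10, Krt5 exceeded Krt1 and Krt15 exceeded Krt77 in all 4. Krt10 exceeded Krt5, and Krt1 exceeded Krt15, in 2 of 4. In Ivl tumours Krt14 (17807 ± 8708) was followed by Krt10 (6032 ± 2913), Krt1 (5762 ± 2866) and Krt5 (3507 ± 1233). The levels then dropped to Krt15 (174 ± 130), Krt80 (69.5 ± 19.2) and Krt77 (41.8 ± 89.0), below Krt5 without overlap.

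In K5 tumours Krt14 (22562 ± 2932 CPM per kb) stood clear of Krt10 (3286 ± 2916), Krt1 (3254 ± 2869) and Krt5 (2811 ± 249), which overlapped with each other. In K14 tumours Krt14 (24532 ± 4521) stood clear of Krt1 (4945 ± 1965), Krt5 (4608 ± 407) and Krt10 (4476 ± 2181). In both groups Krt80 (71.8 ± 14.2 and 86.5 ± 42.3) had moved above Krt15 (47.0 ± 28.8 and 83.9 ± 58.6) by its mean, with overlap, and Krt77 (8.56 ± 15.9 and 4.05 ± 5.80) had dropped below both. Within single libraries, Krt80 exceeded Krt15 in 4 K5 and 2 K14 tumours. The longest coding transcript of Krt80 has 3919 bases and its union of exons 6393 (Krt15 1700 and 1767). The place of Krt80 above Krt15 thus depends on the length chosen.

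**Figure D3:**
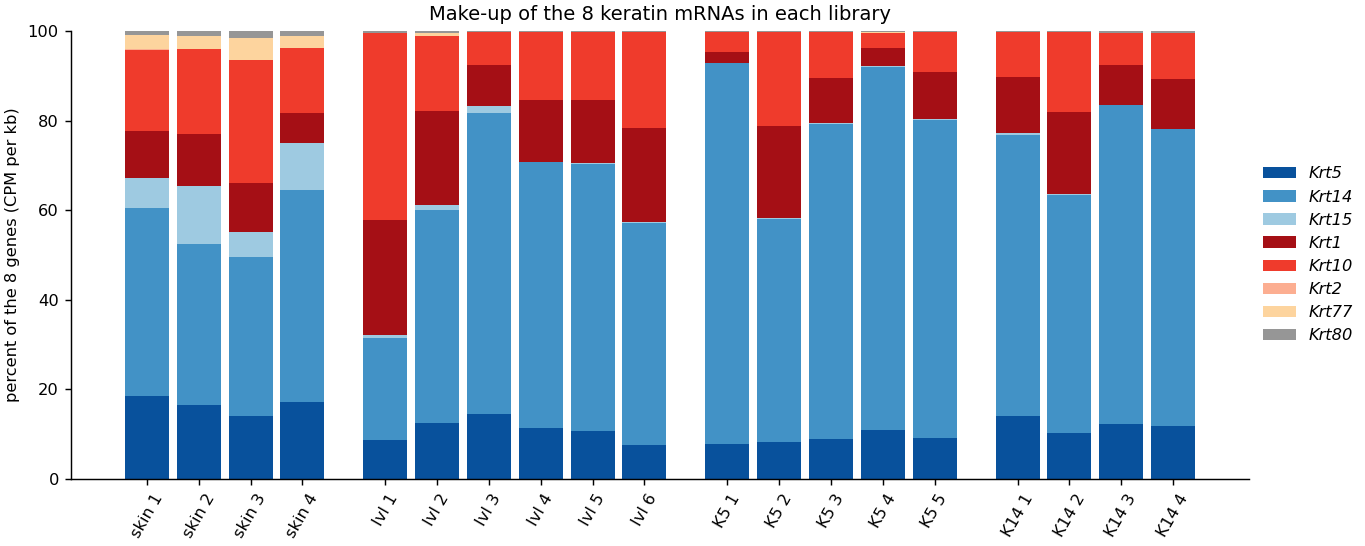
Share of each gene in the summed level of the 8 keratins (CPM per kb), in percent, for each library. Blue parts are basal and red to yellow parts suprabasal keratins. Krt14 takes 35.6% to 47.4% in skin and up to 85.2% in K5 tumour 1, and Ivl tumour 1 has the largest red part.

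By share of the 8 genes, Krt14 took 40.3% ± 5.58 in skin and 68.0% ± 11.6 in K5/K14 tumours, where it ranged up to 85.2%. In Ivl tumours it took 51.1% ± 15.7, from 22.7% to 67.3%, and overlapped with skin. Krt5 took 16.5% ± 1.90 in skin, 10.8% ± 2.50 in Ivl and 10.3% ± 2.11 in K5/K14 tumours. Krt15 took 5.55% to 12.8% in skin and at most 1.53% in a tumour, and Krt77 2.68% to 4.91% in skin and at most 0.689% in a tumour. Krt15 and Krt77 thus held a smaller share in each of the 15 tumours than in any skin sample.

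The ratio of suprabasal to basal keratins was taken as summed CPM per kb of Krt1, Krt10, Krt2 and Krt77 over that of Krt5, Krt14 and Krt15. In skin it was 0.476, 0.515, 0.788 and 0.321. In Ivl tumours 1 to 6 it was 2.11, 0.631, 0.198, 0.410, 0.417 and 0.737. In K5 tumours it was 0.0737, 0.712, 0.254, 0.0813 and 0.241, and in K14 tumours 0.292, 0.568, 0.194 and 0.275. Suprabasal keratins outweighed basal ones in a single library, Ivl tumour 1. Basal keratins outweighed them more than 10 times in K5 tumours 1 and 4.

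On the log2 scale the ratio averaged -1.0 ± 0.53 in skin (SD, n = 4), -0.82 ± 1.14 in Ivl tumours (n = 6) and -2.08 ± 1.09 in K5/K14 tumours (n = 9). The mean of Ivl tumours was thus 0.18 above skin and that of K5/K14 tumours 1.08 below it, and all groups overlapped. The sign in Ivl tumours turned without Ivl tumour 1 (-0.19) and without skin sample 4 (-0.03). With the mean of log2 levels in place of summed levels, the differences from skin were -1.14 in Ivl and -2.15 in K5/K14 tumours. Within the 15 libraries Ivl tumours averaged -1.0 ± 0.48, close to skin, and K5/K14 tumours -1.87 ± 0.95. The basal sum was 2888 ± 1045 CPM per kb in skin, 21488 ± 9815 in Ivl and 27111 ± 4051 in K5/K14 tumours, and the suprabasal sum 1447 ± 540, 11836 ± 5647 and 7827 ± 5033. Skin lay below every tumour in the basal sum and below every Ivl tumour in the suprabasal sum, which overlapped between skin and K5/K14 tumours. As a score over the chosen genes the ratio was given no test.

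**Figure D4:**
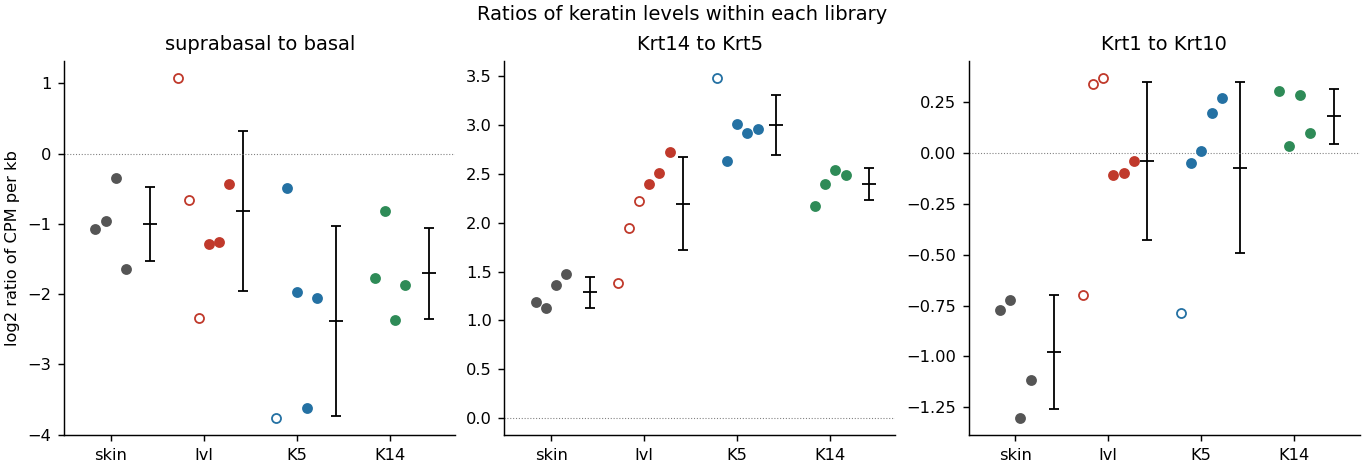
Log2 ratios of CPM per kb within each library: suprabasal to basal keratins, Krt14 to Krt5 and Krt1 to Krt10. Points are libraries, open points the set of 4, and bars mean ± SD. The suprabasal to basal ratio overlaps between all groups, while Krt14 to Krt5 is higher in all tumours but Ivl tumour 1 than in any skin sample.

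The partners within each pair also differed in their balance between skin and tumours. Krt14 exceeded Krt5 per kb by 2.18 to 2.78 times in skin (mean 2.45 ± 0.27, SD, n = 4), 2.60 to 6.62 times in Ivl tumours (4.78 ± 1.42) and 4.51 to 11.2 times in K5/K14 tumours (6.88 ± 2.02). Ivl tumour 1 alone lay within the range of skin. K5 tumours had a higher ratio (8.15 ± 1.84) than K14 tumours (5.29 ± 0.57) without overlap, and kept it within the 15 libraries (7.40 ± 0.84). Relative to its type II partner, the type I partner was thus higher than in any skin sample in all tumours but Ivl tumour 1.

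In the suprabasal pair it was the type II partner that was relatively higher in tumours. Krt1 per kb stood at 0.405 to 0.607 of Krt10 in skin (mean 0.515 ± 0.097), 0.617 to 1.29 in Ivl tumours (1.0 ± 0.25) and 0.580 to 1.24 in K5/K14 tumours (1.05 ± 0.20). K5 tumour 1 was the sole tumour within the range of skin. Within the 15 libraries the 3 Ivl tumours were at 0.945 ± 0.025 and the 8 K5/K14 tumours at 1.11 ± 0.11, so the partners were near 1 to 1 there. The level per kb of Krt1 rests on its longest coding transcript of 2455 bases (Krt10 2094). The union of exons is 4415 bases for Krt1 and 2114 for Krt10. The near 1 to 1 ratio, and the place of Krt1 in the order by level per kb, thus depend on the length chosen. Since all libraries share the length, it does not enter the difference between groups.

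The minor keratins were also lower relative to the main keratin of their own layer. Krt15 stood at 0.156 to 0.355 of Krt14 per kb in skin and at 0.000563 to 0.0298 in the tumours. Krt77 stood at 0.155 to 0.183 of Krt10 in skin, where it varied little (0.172 ± 0.012), and at 0.000109 to 0.0411 in the tumours. Neither ratio overlapped between skin and tumours, in contrast to the levels of both genes in Ivl tumours. A rise of Krt14 or Krt10, which had higher means in the tumours, lowers these ratios by itself. Ivl tumour 2, with the most Krt77 of all libraries, had its ratio of 0.0411 at 11360 CPM of Krt10.

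**Figure D5:**
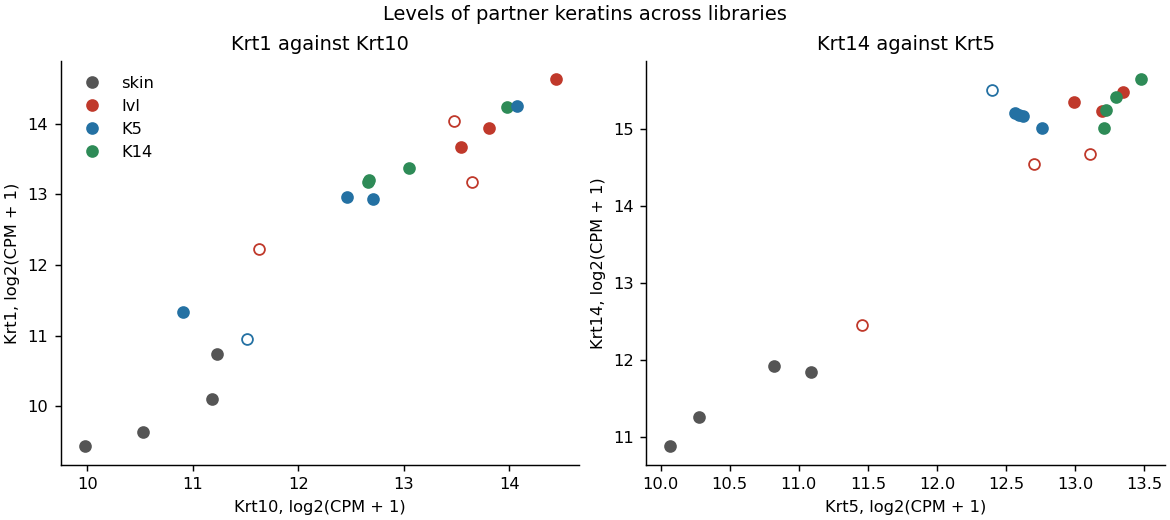
Krt1 against Krt10 and Krt14 against Krt5, as log2(CPM + 1), in all 19 libraries. Colours are groups and open points the set of 4. The Krt1 and Krt10 points of the 15 tumours lie close to a line (r = 0.945), and those of Krt14 and Krt5 are pulled by Ivl tumour 1 at the lower left.

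Across the 15 tumours log2 CPM of Krt1 followed that of Krt10 (Pearson r = 0.945, permutation p = 1e-05, Spearman rho = 0.921, p = 1e-05; 1e-05 is the smallest that the permutations could give). Without the 2 tumours farthest from the median r was 0.936, and over the 11 tumours outside the set it was 0.992. Krt5 and Krt14 were less tightly bound (r = 0.765, permutation p = 0.013; rho = 0.464, p = 0.083), and r fell to 0.472 without the 2 farthest tumours. Over the 11 tumours outside the set it was 0.605 (permutation p = 0.048, adjusted p = 0.072; rho = 0.682, p = 0.026, adjusted p = 0.052), and 0.655 without the 2 farthest of these. Krt14 and Krt10, the type I keratins of the 2 layers, had an r near 0 (r = -0.13, permutation p = 0.67; rho = 0.0286, p = 0.92). In all, 6 relations were tested (3 pairs over the 15 and the 11 tumours), each by r and by rho. Over the 15 tumours the adjusted p for r was 3e-05, 0.026 and 0.76 for the 3 pairs. The other pairs of members, given next, were not tested.

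For the other pairs r over the 15 tumours ranged from -0.46 (Krt15 with Krt80) to 0.531 (Krt15 with Krt2). Over the 11 tumours outside the set these were -0.75 and 0.503. Krt77 and its neighbour Krt1 had an r of -0.07 over the 15 tumours and -0.54 over the 11. Among 9798 other genes with a mean of at least 10 CPM in tumours, those among the 3 most like each member over the 15 tumours included Slc28a3 (r = 0.910), Them5 (0.892) and Plekha1 (0.879) for Krt1, and Mfsd6 (0.899) and Sytl1 (0.890) for Krt10. For Krt5 they were Nat8l (0.891), Dlx5 (0.878) and Galnt6 (0.818), and for Krt14 Galnt6 (0.971), Fhl2 (0.966) and 4732465J04Rik (0.949). Galnt6, an enzyme of protein glycosylation, was thus in the lists of both basal partners.

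Krt15 was most like Gpam (0.922), Magi1 (0.911) and Boc (0.908), Krt77 like Fcgbp (0.921), Clca3a2 (0.856) and Zfp319 (0.853), Krt80 like Tnip1 (0.821) and Pcdh1 (0.802), and Krt2 like Fam84a (0.789), Pfkfb2 (0.763) and Slc6a9 (0.750). These are descriptions over libraries that share a scaling. Over the 11 tumours outside the set r for Fhl2 with Krt14 was 0.295, while for Fcgbp with Krt77 it was 0.901.

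The genes that work with the keratins were counted as lists, each beside the 20.4% of genes called higher and 15.5% called lower in Ivl tumours, and the 23.2% and 38.9% in K5/K14 tumours. All 10 genes of early differentiation, which are switched on as cells leave the basal layer, were higher than in skin in both comparisons, with a median log2 of 2.40 and 2.53. Calm4, a calmodulin-like protein of differentiating keratinocytes, was at 6424 ± 3719 CPM in Ivl and 8580 ± 2412 CPM in K5/K14 tumours against 632 ± 136 CPM in skin. The log2 differences were 3.35 ± 0.46 (edgeR adjusted p = 2.56e-05) and 3.76 ± 0.47 (adjusted p = 3.58e-06). Calml3 (2.43 ± 0.33 and 2.78 ± 0.33), a relative of it, rose in both comparisons, and the desmosomal cadherin Dsc1 rose by 3.11 ± 0.39 in K5/K14 tumours.

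Of 10 genes of the cornified envelope, which forms above the Krt1 layers, 9 were higher and 1 was lower in both comparisons. Ivl, the gene of involucrin, was at 12.3 ± 3.01 CPM in skin, 323 ± 188 CPM in Ivl tumours and 1048 ± 580 CPM in K5/K14 tumours (log2 4.72 ± 0.63, edgeR adjusted p = 2.29e-05, and 6.42 ± 0.68, adjusted p = 1.54e-06). It was lower in Ivl than in K5/K14 tumours (-1.70 ± 0.44, adjusted p = 0.047), as was Klk7, a protease that sheds corneocytes (-1.30 ± 0.31, adjusted p = 0.0362), and within the 15 libraries neither passed (-1.0 ± 0.45, adjusted p = 0.416, and -0.87 ± 0.37, adjusted p = 0.388). The gene that fell was Flg2, a filaggrin relative of the granular layer, at 831 ± 281 CPM in skin, 97.7 ± 69.9 CPM in Ivl and 229 ± 386 CPM in K5/K14 tumours. Its log2 differences were -3.09 ± 0.83 (edgeR adjusted p = 0.00782) and -1.86 ± 0.72 (adjusted p = 0.032), and the K5/K14 tumours overlapped with skin.

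Of the 9 genes that tie keratin filaments to desmosomes, 8 were higher and 1 was lower in both comparisons. Pkp3, a plakophilin, had log2 differences of 1.66 ± 0.21 (edgeR adjusted p = 1.99e-05) and 1.78 ± 0.20 (adjusted p = 2.07e-06), and Pkp1 of 1.81 ± 0.24 and 1.77 ± 0.23. The one that fell was Eppk1, epiplakin, a keratin binder (-1.25 ± 0.44, adjusted p = 0.0356, and -2.52 ± 0.40, adjusted p = 4.79e-05). Eppk1 and Flg2 were chosen for mention after their values were seen.

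Among 11 genes that anchor Krt5 and Krt14 filaments to the basement membrane, 7 were higher and 1 lower in Ivl tumours, and 9 higher and 2 lower in K5/K14 tumours. Itga6, a subunit of the hemidesmosomal integrin, rose by 1.46 ± 0.26 (edgeR adjusted p = 0.00023) and 1.87 ± 0.26 (adjusted p = 9.16e-06). The lower genes were the linkers Plec in both comparisons and Dst in K5/K14 tumours. Between the tumours Lama3 (-1.23 ± 0.31, edgeR adjusted p = 0.045) and Lamb3 (-1.17 ± 0.31, adjusted p = 0.0496), which encode laminin chains of the basement membrane, were lower in Ivl than in K5/K14 tumours, and neither passed within the 15 libraries (-1.0 ± 0.44, adjusted p = 0.41, and -0.99 ± 0.42, adjusted p = 0.382).

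Of 17 transcription factors known to control epidermal keratins, 10 were higher and 1 lower in Ivl tumours, and 12 and 2 in K5/K14 tumours. Tfap2c (log2 1.26 ± 0.16 and 1.36 ± 0.15), Ovol1 (2.07 ± 0.26 and 1.91 ± 0.25) and Cebpb (1.42 ± 0.18 and 1.46 ± 0.17) had the smallest adjusted p. Ovol1 restrains growth in differentiating cells, and Cebpb is linked to the onset of Krt1 and Krt10. Between Ivl and K5/K14 tumours 0 of the 17 were called by edgeR or DESeq2, which called 756 and 2161 of all 32031 genes. By edgeR 1 of the 17 had an unadjusted p under 0.05 (Notch1), as had 6754 of all genes.

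The wound keratins, which activated keratinocytes make, were higher in both tumour groups, 4 of 4, with medians of 5.06 and 5.16 on the log2 scale. Krt6b rose by 6.76 ± 0.81 (edgeR adjusted p = 1.82e-05) and 7.27 ± 0.82 (adjusted p = 2e-06), and Krt6a, Krt16 and Krt17 by 2.76 to 5.67.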

How the data were processed

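Poly(A) RNA of 19 fresh-frozen samples was sequenced. Per the methods, the authors trimmed reads with Trim Galore, checked them with FastQC (0.11.8), aligned them to GRCm38 with HISAT2 (2.1.0), counted them with featureCounts of Subread (1.6.3) and adjusted them for batch with ComBat-seq. The deposited values are therefore estimated counts, although all are whole numbers, and rounding left them as they were. The plan had assumed raw counts. An adjustment of this kind can move groups that are unevenly spread over batches. Whether strand was used is not given in the sources used here.

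Genes with at least 5 counts in 1 library (32031) were fitted over all 19 libraries with TMM factors and edgeR's quasi-likelihood test (edgeR 4.0.16, R 4.3.3), and p-values were adjusted by Benjamini-Hochberg over all genes, with a threshold of 0.05. K5 and K14 tumours were merged as in the study, and fitted apart for the comparison between them. The labels do not say that each sample came from a separate mouse, so p-values measure the spread between these samples. The members and lists were chosen with earlier results of these data known. The genes named were the 8 members, the 3 most like each and at most 3 of each list by adjusted p, plus a few named for their values, as stated there. A few genes that this rule names are not reported here. DESeq2 (1.42.0), other scalings, filters, groupings and left-out libraries were the alternatives. The fit was also run on simulated data with 200 changed genes, far fewer than were called here. That run does not show how the fit behaves with as many changes as in these data. Of 37 replicate pairs none was as close as sampling noise alone allows (chi-square over its degrees of freedom at least 25.9).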

Additional observations from a re-analysis of the deposited data

Results flagged for a closer look

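Dixon's test was run on 44 groups of values over 11 measures, and 5 values, from 4 libraries, stood apart from their group, where chance gives about 1 group in 20. Ivl tumour 1 lay far below the other Ivl tumours for both basal partners, with Krt5 at 2805 CPM (others 6660 to 10407) and Krt14 at 5639 CPM (others 23970 to 45642). Ivl tumour 3 was low for Krt10, at 3163 CPM (others 11360 to 22188). K14 tumour 2 was high for Krt2, at 1.798 CPM against 0.181 to 0.3114 in the other K14 tumours. K5 tumour 4 was high for Krt77, at 108.5 CPM against 2.096 to 6.073 in the other K5 tumours. Ivl tumours 1 and 3 belong to the set of 4 libraries, and the part of that set in these values was not tested.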

How the results depend on the processing

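The number of keratins called was 4 in Ivl tumours against skin (4 to 5 with a library left out, 6 within the 15 libraries, 4 to 6 with a library left out of those), 7 in K5/K14 tumours (6 to 8, and 6 to 8), 0 in Ivl against K5/K14 tumours (0 to 1, and 0) and 0 in K5 against K14 tumours (0, and 0). For one keratin, 300 of 312 results under other settings kept direction and call, 3 came to pass the test and 9 changed sign. With a library left out, 363 of 376 kept both, and 246 of 304 within the 15. The latter were also set against the fit over all 19 libraries, so that leaving out the set of 4 counts in them too.

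Sign changes were as follows, in log2, and their cause was not tested. Scaling by totals gave Krt80 -0.208 in Ivl and -0.159 in K5/K14 tumours against skin, and Krt5 0.045 in Ivl against K5/K14 tumours. Within the 15 libraries, Ivl against K5/K14 gave Krt5 0.175, Krt14 0.104 and Krt77 -0.881; with the set as a covariate, Krt5 0.175 and Krt77 -0.137, and Krt14 0.040 for K5 against K14. With a library left out, ranges crossed 0 for Ivl against K5/K14 in Krt5 (-0.147 to 0.131) and Krt77 (-0.237 to 3.928), for Ivl against skin in Krt2 (-1.267 to 0.35) and in the suprabasal to basal ratio (-0.194 to 0.488), and for K5 against K14 in Krt77 (-1.493 to 2.86) and Krt80 (-0.493 to 0.008). With a library left out of the 15 (chosen after seeing the data), ranges for Ivl against K5/K14 were Krt5 0.087 to 0.263, Krt14 0.038 to 0.17, Krt15 -0.049 to 0.688, Krt77 -2.908 to 0.419 and Krt80 -0.25 to 0.088; for Ivl against skin Krt2 -2.01 to 0.129; and for K5 against K14 Krt10 -0.981 to 0.142 and Krt77 -1.555 to 3.122. The matching ranges of those that kept their sign over all 19 libraries were -0.552 to -0.179 (Krt14), 1.118 to 1.691 (Krt15) and -0.271 to -0.043 (Krt80) for Ivl against K5/K14, and -1.127 to -0.053 (Krt10) for K5 against K14, where Krt80 within the 15 ranged from -0.505 to -0.004.

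Over all genes, 11515 were called in Ivl tumours against skin (6535 higher, 4980 lower), 18328 with totals (2868 and 15460), 17566 within the 15 (7101 and 10465) and 5712 higher and 6828 lower with median-of-ratios factors; leaving out a library gave 9165 to 14757, and 14215 to 17233 within the 15. In Ivl against K5/K14 tumours 756 became 2161 with DESeq2, 131 within the 15 and 449 with the covariate; leaving out a library gave 127 to 1328, and 50 to 126. In K5 against K14 tumours 0 became 201 with DESeq2, 17 within the 15 and 2 with those groups alone; leaving out a library gave 0, and 2 to 8. The median log2 difference of all genes in Ivl tumours was -0.46 with TMM and -1.13 with totals.

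The suprabasal to basal ratio taken as a mean of log2 levels, which gives scarce Krt2 and Krt77 the weight of Krt1, differed from skin by -1.143 in Ivl (0.185 as reported) and -2.148 in K5/K14 tumours (-1.077 as reported). Replicate numbers did not pair the samples (r of same-number pairs -0.498 to 0.444, 7 of 25 over 0.1, and 3 of 19 libraries closest to their own number). With the replicate number as a block, 7700, 18286, 46 and 0 genes were called in the 4 comparisons in the order above, and 4, 7, 0 and 0 keratins. Counts of 1 to 13 limit Krt2 in most K5 and K14 tumours.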
